A study of Mus musculus and Homo sapiens with 176 samples.

Results

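The 6 genes described here, Gdf10, Vim, Lcat, Hopx, Fabp7 and Dao, are used as markers of Bergmann glia. They were chosen by name, with earlier results of these data known, as the features of the mouse RNA tables that carry these symbols; the rule itself uses no measured value. Each symbol matched 1 feature, so they make up 6 of the 24854 features listed, and their abundance in FPKM, a unit that corrects for transcript length and library size, was followed across the 4 groups of sorted nuclei.

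Bergmann glia are the radial astrocytes of the cerebellar cortex. Their cell bodies lie among the Purkinje cells, and their fibres cross the molecular layer to the surface under the meninges, guide migrating granule cells during development and wrap the synapses on Purkinje dendrites in the adult. They keep several genes of embryonic radial glia switched on, and prefrontal cortex has ordinary astrocytes but no Bergmann glia.

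The study profiled histone marks and RNA in nuclei of mouse cerebellum and prefrontal cortex, to compare glial and neuronal nuclei within and between the regions. Nuclei of 1 C57Bl/6 mouse of 8 to 10 weeks were stained for NeuN, a nuclear antigen of most neurons and the product of Rbfox3, and sorted into a negative and a positive gate. No treatment or transgene is named for this animal. The groups, of 2 RNA libraries each, were cerebellar NeuN-, cerebellar NeuN+, prefrontal NeuN- and prefrontal NeuN+. With 1 animal, every p-value here reflects how far libraries of a group differ, possibly for technical reasons, and says nothing on variation among mice. NeuN- is a mixed gate that holds every nucleus without strong staining, of which Bergmann glia are at most a fraction, and in these bulk libraries fewer nuclei of a type and less RNA per nucleus cannot be told apart.

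The FPKM of a library summed to between 289350 and 426851, and 11256 to 12494 features reached 1 FPKM. Absolute depth is unknown. The confidence limits of features whose lower limit was above 0 in both libraries compared put the libraries within 1.51 times of the shallowest. Values were multiplied by a factor per library (0.869 to 1.04) before testing, and the 14376 features that reached 1 FPKM in 2 or more libraries were tested. Below, values per library are FPKM as deposited, group means are scaled FPKM ± SD (n = 2), folds are ratios of those means, and log2 changes are on the scale of log2(scaled FPKM + 1). The scaling matters for comparisons that involve prefrontal NeuN- libraries: between cerebellar and prefrontal NeuN- the median over all features (log2) was 0.02, and it was -0.13 for unscaled FPKM and 0.26 for FPKM rescaled to a common sum. No change of the 6 genes turned its direction under any scaling tried.

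The sequences around the start of transcription are shown for 5 of the genes because Gdf10, Vim and Dao were each highest in cerebellar NeuN-, Fabp7 was lower there than in prefrontal NeuN-, and Hopx encodes a cofactor of serum response factor. They are RefSeq windows on the build GRCm38.p6, 250 bases before to 50 after the annotated start, read 5′ to 3′ on the strand of the gene. The windows are chr14:33923337-33923636 (plus strand) for Gdf10, chr2:13574061-13574360 (plus) for Vim, chr5:114003485-114003784 (plus, the window listed first of 3) for Dao, chr10:57784673-57784972 (plus) for Fabp7 and chr5:77115074-77115373 (minus, the window listed first of 2) for Hopx. Capitals mark matches, on either strand, to the letters of 7 motifs that were chosen after these windows had been seen: the letters GGGCGG mark a GC box, CCAAT the box of that name, TATAAA the element named after its first letters, TGGGAA an RBPJ core, ACAAT a SOX core and TTGGCA an NFI element, and the CArG box is given by its name.
Gdf10: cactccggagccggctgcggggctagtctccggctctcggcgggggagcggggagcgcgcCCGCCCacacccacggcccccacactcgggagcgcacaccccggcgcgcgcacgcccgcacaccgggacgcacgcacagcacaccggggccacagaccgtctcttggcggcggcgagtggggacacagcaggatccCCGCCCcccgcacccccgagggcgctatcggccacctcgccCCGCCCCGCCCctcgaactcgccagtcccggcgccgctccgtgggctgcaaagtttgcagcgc
Vim: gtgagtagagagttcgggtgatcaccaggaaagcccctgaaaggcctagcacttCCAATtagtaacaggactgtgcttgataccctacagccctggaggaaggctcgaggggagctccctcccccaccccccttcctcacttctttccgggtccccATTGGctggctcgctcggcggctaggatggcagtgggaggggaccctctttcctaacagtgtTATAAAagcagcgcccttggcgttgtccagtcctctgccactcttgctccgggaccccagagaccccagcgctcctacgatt
Dao: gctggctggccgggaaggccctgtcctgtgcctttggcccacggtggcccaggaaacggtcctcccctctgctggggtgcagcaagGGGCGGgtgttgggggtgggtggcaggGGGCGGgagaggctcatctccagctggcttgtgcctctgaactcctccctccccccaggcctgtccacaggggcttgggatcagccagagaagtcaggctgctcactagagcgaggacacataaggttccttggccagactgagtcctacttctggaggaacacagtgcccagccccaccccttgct
Fabp7: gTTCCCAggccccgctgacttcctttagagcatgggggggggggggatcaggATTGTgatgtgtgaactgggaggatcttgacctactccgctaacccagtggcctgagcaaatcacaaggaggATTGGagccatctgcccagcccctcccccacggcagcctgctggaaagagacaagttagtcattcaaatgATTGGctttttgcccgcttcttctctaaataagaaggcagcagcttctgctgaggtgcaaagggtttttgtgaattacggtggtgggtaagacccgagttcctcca
Hopx: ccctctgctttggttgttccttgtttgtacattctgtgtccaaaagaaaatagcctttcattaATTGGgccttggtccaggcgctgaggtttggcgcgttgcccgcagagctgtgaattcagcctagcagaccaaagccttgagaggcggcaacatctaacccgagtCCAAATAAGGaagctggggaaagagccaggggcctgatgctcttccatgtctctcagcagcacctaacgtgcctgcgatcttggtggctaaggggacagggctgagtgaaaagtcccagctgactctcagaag

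The Gdf10 window was the richest in CpG, with 42 CpG and 77.3% GC, more CpG than 97.0% of the 32851 windows of the table, whose median is 7. It held 4 GC boxes, of which the last pair overlaps by a base, and none of the other motifs. The Dao window held 2 GC boxes and 6 CpG. Vim had 2 CCAAT boxes and a TATA box with 11 CpG, and Fabp7 had 2 CCAAT boxes, 1 RBPJ core and 1 SOX core with 6 CpG. The printed Hopx window had 1 CCAAT box and 1 CArG box, the class of element that serum response factor binds, with 8 CpG. The Hopx window listed second had no CArG box, and held 1 CCAAT box, 1 SOX core and 21 CpG. The Lcat window, not printed, had 1 CCAAT box, 1 SOX core and 7 CpG. No motif was shared by Gdf10, Vim and Dao in these windows. Among all windows 35.66% held the GC box, 37.41% the CCAAT box, 13.62% the TATA box, 25.56% the RBPJ core, 31.02% the SOX core, 14.12% the NFI element and 1.629% the CArG box. Such matches describe the letters of the windows and are not evidence of binding.

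Across the libraries the 6 genes did not share 1 pattern. Gdf10, Vim and Dao were far higher in cerebellar NeuN- than in any other group. Hopx and Lcat were highest there too but also high in prefrontal NeuN-. Fabp7 was highest in prefrontal NeuN-. On the per-length FPKM scale Hopx was the most abundant of the 6 in cerebellar NeuN- and Dao the least.

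**Figure D1:**
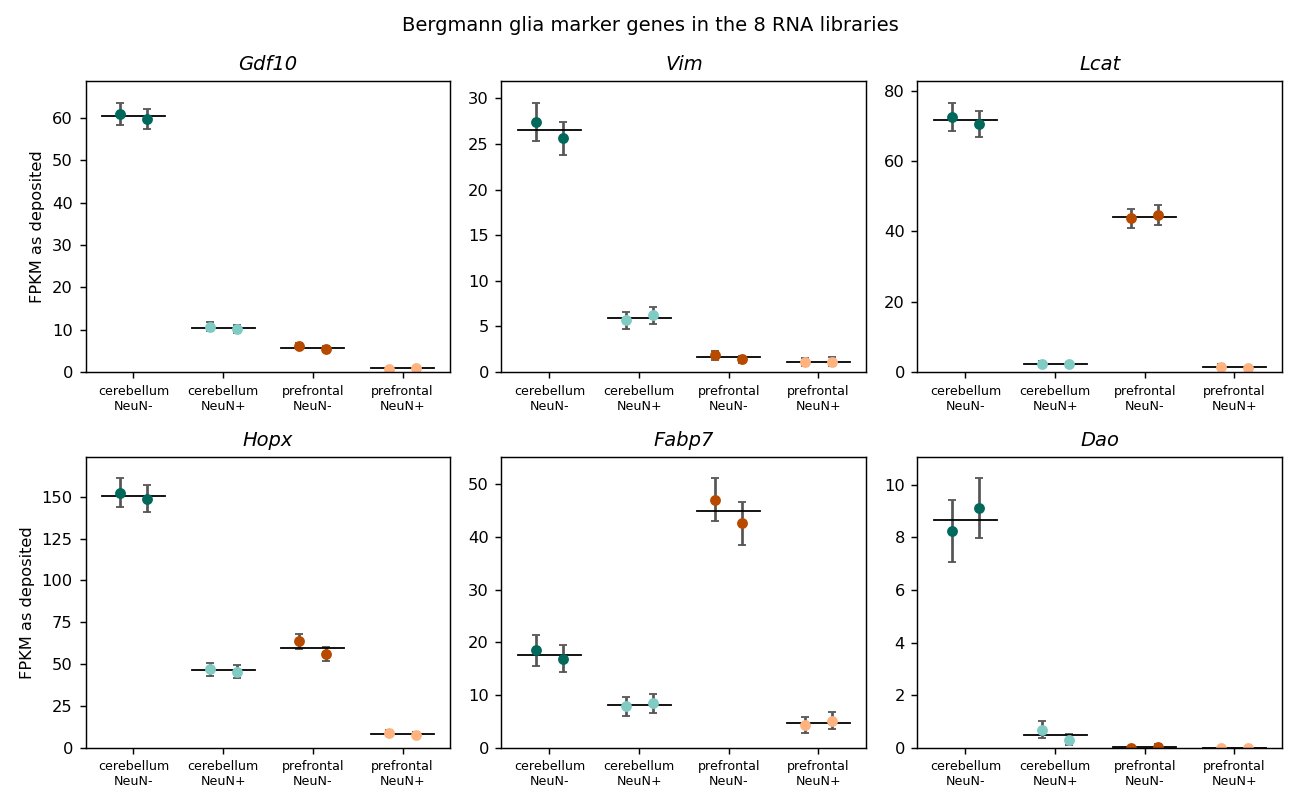
FPKM as deposited (vertical axes, a different scale for each gene) of the 6 genes in cerebellar NeuN-, cerebellar NeuN+, prefrontal NeuN- and prefrontal NeuN+ nuclei; points are the 2 libraries of a group, vertical bars the deposited confidence limits and horizontal lines the group means. Cerebellar NeuN- libraries are the highest for 5 genes, and prefrontal NeuN- libraries for Fabp7, at 47.1 and 42.7 FPKM.

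Gdf10 (chromosome 14, 34736773 to 34748468, mm9, the build of the deposited tables) encodes a secreted ligand of the TGF-beta family. It was listed at 61.0 and 59.8 FPKM in the cerebellar NeuN- libraries and at 10.7 and 10.1 FPKM in cerebellar NeuN+. Prefrontal NeuN- libraries had 6.15 and 5.37 FPKM, and prefrontal NeuN+ libraries 0.735 and 0.933 FPKM. The 4 groups did not overlap, and the cerebellar NeuN+ libraries lay above the prefrontal NeuN- ones. The group means were 62.0 ± 1.23 in cerebellar NeuN-, 10.7 ± 0.512 in cerebellar NeuN+, 5.06 ± 0.416 in prefrontal NeuN- and 0.864 ± 0.145 in prefrontal NeuN+. The ratio of cerebellum to prefrontal cortex was nearly the same in both gates, 12.3-fold in NeuN- (log2 change 3.38, SE 0.0813, limma adjusted p = 3.3e-07) and 12.4-fold in NeuN+ (log2 change 2.65, limma adjusted p = 5.3e-07). So was the ratio of NeuN- to NeuN+, at 5.80-fold in cerebellum (log2 change 2.43) and 5.85-fold in prefrontal cortex (log2 change 1.70, limma adjusted p = 4.6e-06).

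Lcat (chromosome 8, 108463451 to 108467302, mm9) encodes lecithin-cholesterol acyltransferase, a secreted enzyme that esterifies the cholesterol of lipoproteins. Cerebellar NeuN- libraries had 72.6 and 70.5 FPKM, and cerebellar NeuN+ libraries 2.30 and 2.18 FPKM. Prefrontal NeuN- libraries had 43.7 and 44.6 FPKM, and prefrontal NeuN+ libraries 1.53 and 1.05 FPKM. Both NeuN- groups were thus far above both NeuN+ groups, without overlap, and within each gate the cerebellar libraries were the higher. Lcat had the widest separation of the gates among the 6 genes in both regions, 31.8-fold in cerebellum (log2 change 4.49, SE 0.1000, limma adjusted p = 3.5e-07) and 29.1-fold in prefrontal cortex (log2 change 4.10, limma adjusted p = 3.6e-07). Between the regions it differed 1.89-fold in NeuN- (73.4 ± 1.88 in cerebellum and 38.8 ± 1.09 in prefrontal cortex, limma adjusted p = 1.6e-04) and 1.73-fold in NeuN+ (limma adjusted p = 0.00296).

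Dao (chromosome 5, 114453744 to 114475684, mm9) encodes D-amino acid oxidase, a peroxisomal enzyme that breaks down D-serine, a co-agonist of NMDA receptors. It was listed at 8.24 and 9.10 FPKM in the cerebellar NeuN- libraries and at 0.688 and 0.307 FPKM in cerebellar NeuN+. In prefrontal cortex it was listed at 0 and 0.0344 FPKM in NeuN- and at 0 in both NeuN+ libraries. More than a trace of Dao was thus found only in the cerebellar libraries, and the NeuN- ones were far above the NeuN+ ones. Its cerebellar means were 8.90 ± 0.583 in NeuN- and 0.512 ± 0.280 in NeuN+, a 17.4-fold ratio. Dao passed the filter on low values only through the 2 cerebellar NeuN- libraries, so it had to be higher there, and no test is given for it in any comparison that holds this group. No fold is given against prefrontal cortex.

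Vim (chromosome 2, 13495938 to 13504453, mm9) encodes vimentin, an intermediate filament protein of radial glia, reactive astrocytes and mesenchymal and vascular cells. It was listed at 27.4 and 25.6 FPKM in the cerebellar NeuN- libraries and at 5.68 and 6.21 FPKM in cerebellar NeuN+. Both prefrontal groups were low, with 1.82 and 1.37 FPKM in the NeuN- libraries and 1.13 and 1.14 FPKM in the NeuN+ libraries. The deposited confidence limits of the prefrontal gates overlapped, while the cerebellar groups stood apart from each other and from prefrontal cortex. Among the genes other than Dao, Vim had the largest ratio between the regions in NeuN-, 19.5-fold (27.2 ± 1.46 in cerebellum and 1.40 ± 0.256 in prefrontal cortex, log2 change 3.56, SE 0.0928, limma adjusted p = 4.3e-07), and a ratio of 5.19-fold in NeuN+ (limma adjusted p = 5.6e-06). Within cerebellum NeuN- was 4.46-fold above NeuN+ (log2 change 1.99, limma adjusted p = 4.1e-06). Within prefrontal cortex the means were 1.40 ± 0.256 in NeuN- and 1.18 ± 0.00947 in NeuN+, which did not pass the test (log2 change 0.14, limma adjusted p = 0.227); for unscaled FPKM this difference did pass (log2 change 0.28, limma adjusted p = 0.0404).

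Fabp7 (chromosome 10, 57504729 to 57508256, mm9) encodes brain lipid binding protein, a carrier of fatty acids that marks radial glia and is kept in astrocytes. The cerebellar NeuN- libraries listed 18.5 and 16.9 FPKM and the cerebellar NeuN+ libraries 7.84 and 8.48 FPKM. Prefrontal NeuN- libraries had 47.1 and 42.7 FPKM, and prefrontal NeuN+ libraries 4.34 and 5.12 FPKM. The groups did not overlap, and prefrontal cortex held both the highest and the lowest of them. Fabp7 was lower in cerebellar than in prefrontal NeuN- nuclei, at 18.2 ± 1.29 in cerebellum and 39.4 ± 2.20 in prefrontal cortex (log2 change -1.08, SE 0.0891, limma adjusted p = 3.8e-05). In NeuN+ nuclei it was 1.71-fold higher in cerebellum, at 8.39 ± 0.413 against 4.90 ± 0.569 in prefrontal cortex (limma adjusted p = 4.3e-04). It was the only one of the 6 genes whose region difference had opposite signs in the 2 gates. Its NeuN- level was 2.16-fold above NeuN+ in cerebellum (log2 change 1.03, limma adjusted p = 6.3e-05) and 8.04-fold above it in prefrontal cortex (log2 change 2.78, limma adjusted p = 9.2e-07).

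Hopx (chromosome 5, 77516011 to 77544148, mm9) encodes a small homeodomain protein that does not bind DNA itself and is known from the heart as a partner of serum response factor; in brain it marks radial glia, astrocytes and neural stem cells. It was listed at 152 and 149 FPKM in the cerebellar NeuN- libraries and at 46.9 and 45.5 FPKM in cerebellar NeuN+. Prefrontal NeuN- libraries had 63.6 and 56.1 FPKM, and prefrontal NeuN+ libraries 8.66 and 7.80 FPKM. The order of the groups was cerebellar NeuN-, prefrontal NeuN-, cerebellar NeuN+ and prefrontal NeuN+, and the middle groups were close after scaling, at 52.5 ± 3.96 in prefrontal NeuN- and 47.5 ± 1.32 in cerebellar NeuN+, a pair that no comparison tested. Hopx was 2.94-fold higher in cerebellar than in prefrontal NeuN- (log2 change 1.54, SE 0.0701, limma adjusted p = 2.9e-06) and 5.57-fold higher in cerebellar than in prefrontal NeuN+ (log2 change 2.35, limma adjusted p = 4.8e-07). The gates differed 3.26-fold in cerebellum (log2 change 1.68) and 6.16-fold in prefrontal cortex (log2 change 2.49, limma adjusted p = 5.8e-07). In RefSeq on GRCm38.p6 the gene overlaps the noncoding RNA gene Hopxos and a snoRNA, and their fragments cannot be told from those of Hopx, since the deposited tables name no strand setting.

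Setting NeuN- against NeuN+ nuclei of cerebellum asked whether the 6 genes were higher in NeuN- in the region where Bergmann glia live. All 5 genes other than Dao were called higher in NeuN-, where 71.6% of all features were called in either direction, 39.2% higher and 32.4% lower. Their median log2 change was 1.99, against 0.04 over all features. The 6 genes differed in how much of the NeuN- level was also found in NeuN+. The NeuN+ mean was 3.14% of the NeuN- mean for Lcat, 5.75% for Dao, 17.2% for Gdf10, 22.4% for Vim, 30.7% for Hopx and 46.2% for Fabp7. For comparison, 12 oligodendrocyte genes had NeuN+ means of 2.89% of NeuN- and upward (median 15.7%), and 18 astrocyte genes with at least 5 scaled FPKM in NeuN- had 1.18% to 61.0% (median 12.6%). Thus Hopx, Vim and Fabp7 exceeded every oligodendrocyte gene in this share, while none of the 6 exceeded the highest astrocyte gene, the bicarbonate transporter gene Slc4a4. A higher level in cerebellar NeuN- was not limited to glial genes. All 8 kept genes of cerebellar inhibitory interneurons were higher there too, while all 10 granule cell genes were lower.

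In prefrontal cortex, which has astrocytes but no Bergmann glia, 4 of the 6 genes were higher in NeuN- and Vim and Dao were not called. There 72.6% of all features were called, 37.6% higher and 35.0% lower. Lcat, Fabp7, Hopx and Gdf10 separated the gates by 29.1-fold, 8.04-fold, 6.16-fold and 5.85-fold. The prefrontal NeuN- gate also held neuronal messages. The 10 general neuronal genes summed to 2292 and 2424 scaled FPKM in NeuN- and to 1875 and 1847 in NeuN+, with 4 of them higher, 4 lower and 2 not called in NeuN-. Snap25, a synaptic vesicle fusion gene, made up most of that sum, at 1424 ± 73.3 in NeuN- and 1013 ± 3.39 in NeuN+. The 9 genes of cortical projection neurons summed to 32.4 and 31.6 in NeuN- and to 61.5 and 65.1 in NeuN+. The part of neurons in the levels of the 6 genes was not tested.

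**Figure D2:**
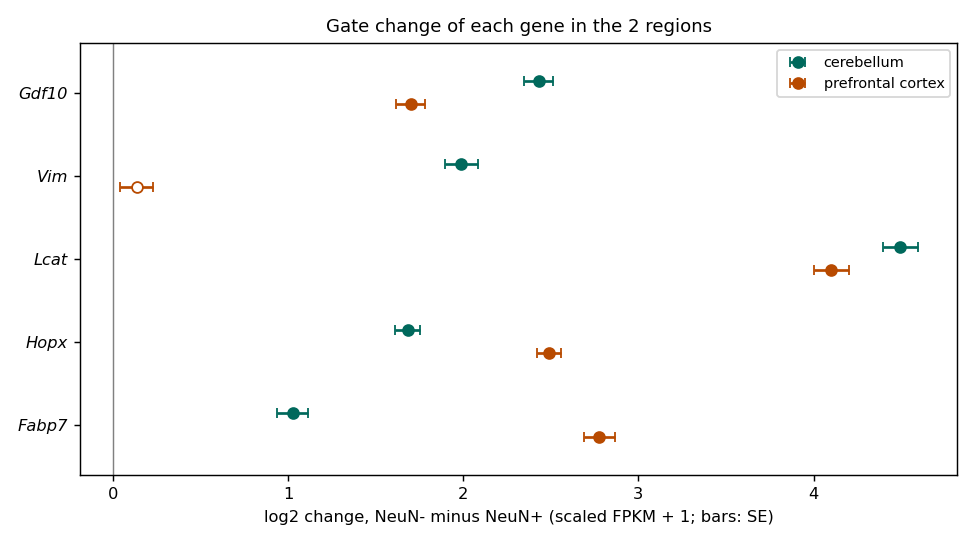
Log2 change between the gates (NeuN- minus NeuN+, log2(scaled FPKM + 1), horizontal axis) for 5 genes in cerebellum and in prefrontal cortex, with SE bars from limma; the open point did not pass the test. The cerebellar changes run from 1.03 for Fabp7 to 4.49 for Lcat; Dao, which passed the filter only through cerebellar NeuN-, is not drawn.

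Between the regions, the NeuN- comparison asked which of the genes were higher where Bergmann glia are found. Of the 5 genes other than Dao, 4 were higher in cerebellar than in prefrontal NeuN- and Fabp7 was lower. Of all features 79.4% were called in this comparison, 40.5% higher and 39.0% lower in cerebellum, so a call as such says little here and the size of the change carries the description. The median log2 change of the 5 was 1.54, against 0.02 over all features. Vim and Gdf10 led with ratios of 19.5 and 12.3, Hopx and Lcat followed with 2.94 and 1.89, and Dao was at 8.90 ± 0.583 in cerebellum and near 0 in prefrontal cortex.

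In NeuN+ nuclei all 6 genes were called higher in cerebellum than in prefrontal cortex, where 77.2% of all features were called, 36.5% higher and 40.7% lower. The ratios were 12.4 for Gdf10, 5.57 for Hopx, 5.19 for Vim, 1.73 for Lcat and 1.71 for Fabp7. Dao was listed at 0.688 and 0.307 FPKM in cerebellar NeuN+ and at 0 in both prefrontal NeuN+ libraries. Its call thus rests on values under 1 FPKM. Its log2 change of 0.58 was 0.14 with a pseudocount of 5 and 2.53 with a pseudocount of 0.1. Astrocyte genes did not all move the same way in this comparison: 9 of 20 were higher, 2 were lower and 9 were not called. A higher level in cerebellar NeuN+ was not particular to the 6 genes. Of 12 oligodendrocyte genes 8 were higher, 0 lower and 4 not called. Of 14 kept other genes reported in Bergmann glia 10 were higher, 2 lower and 2 not called. Microglial genes went mostly the other way, with 3 of 11 kept ones higher, 7 lower and 1 not called.

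**Figure D3:**
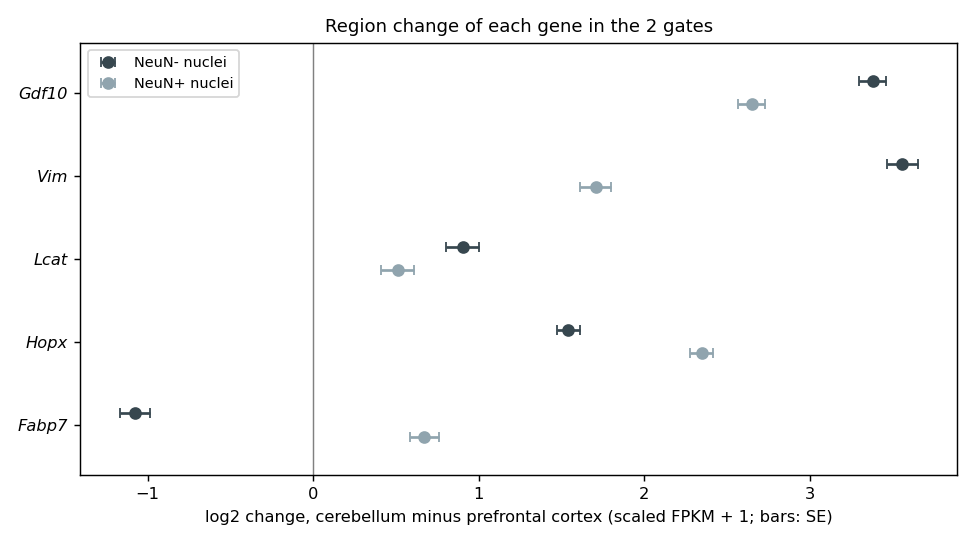
Log2 change between the regions (cerebellum minus prefrontal cortex, log2(scaled FPKM + 1), horizontal axis) for 5 genes in NeuN- and in NeuN+ nuclei, with SE bars from limma. Fabp7 lies at -1.08 in NeuN- and 0.67 in NeuN+, while Gdf10, Vim, Lcat and Hopx lie above 0 in both gates; Dao is not drawn.

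Whether the gate change itself differed between the regions was tested as an interaction, the cerebellar NeuN- minus NeuN+ change less the prefrontal one. All 5 genes other than Dao were called, in a comparison where 70.1% of all features were called, 37.0% higher and 33.1% lower. The gate change was larger in cerebellum for Vim, with an interaction of 1.85 (SE 0.131, limma adjusted p = 4.1e-05). It was smaller in cerebellum for Fabp7, with an interaction of -1.75 (SE 0.126, limma adjusted p = 4.4e-05), and for Hopx, with -0.81 (SE 0.0991, limma adjusted p = 4.3e-04). Negative interactions were not particular to these genes. They were called for 11 of 12 oligodendrocyte genes, with 0 positive and 1 not called. All 11 kept microglial genes had them too, with the direction of C1qc fixed by the filter. Astrocyte genes were split, with 10 of 20 negative, 4 positive and 6 not called. For Gdf10 the interaction was 0.73 (limma adjusted p = 0.00133), but it rests on the pseudocount: the ratios of the means were alike in the regions, 5.80 in cerebellum and 5.85 in prefrontal cortex, and with a pseudocount of 0.1 the interaction was 0.10 (limma adjusted p = 0.607). The interaction of Lcat, 0.39 (limma adjusted p = 0.0429), was lost under 10 of 18 alternatives, 7 of which left out a library, and was 0.23 without prefrontal NeuN+ replicate 1.

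Other cell types of the NeuN- gate also differed between the regions, and their part in the changes of the 6 genes was not tested. Of all features 39.2% were called higher and 32.4% lower in NeuN- than in NeuN+ of cerebellum. Between the NeuN- groups 40.5% were called higher in cerebellum and 39.0% lower. Summed scaled FPKM of 10 Purkinje cell genes were 950 and 984 in the cerebellar NeuN- libraries, 790 and 783 in cerebellar NeuN+ and 133 and 136 in prefrontal NeuN-. Between the cerebellar gates these genes did not share a direction: 4 were higher in NeuN-, 3 lower and 3 not called, with a median log2 change of -0.09. Slc1a6 passed the filter only through 1 of these gates, so its direction was fixed. Most of the sum came from Pcp2, at 384 ± 21.2 in NeuN- and 408 ± 3.74 in NeuN+ (limma adjusted p = 0.682), and Pvalb, at 394 ± 4.42 in NeuN- and 272 ± 1.92 in NeuN+. The 10 granule cell genes summed to 302 and 298 in cerebellar NeuN- and to 1052 and 1051 in cerebellar NeuN+. The 9 genes of cerebellar inhibitory interneurons summed to 91.6 and 86.9 in cerebellar NeuN- and to 19.6 and 19.1 in cerebellar NeuN+. In prefrontal NeuN- they summed to 58.8 and 61.8. All 8 kept ones were higher in NeuN- than in NeuN+ of cerebellum. Between the NeuN- groups 6 of them were higher in cerebellum and 2 lower. For Vim, which vascular and meningeal cells also express, the 12 endothelial genes summed to 9.18 and 8.54 in cerebellar NeuN- and to 6.94 and 7.07 in prefrontal NeuN-. Of these, Pecam1 was listed at 0 in the NeuN- libraries of both regions and Tek, Emcn and Esam in those of cerebellum. The 4 kept genes split into 2 higher and 2 lower in cerebellum. Cdh5 passed the filter only through 1 of these groups, so its direction was fixed. The 10 meningeal fibroblast genes summed to 73.0 and 73.2 in cerebellar NeuN- and to 62.6 and 67.9 in prefrontal NeuN-. Of the 7 kept ones 4 were higher in cerebellum, among them the collagen gene Col1a2 at 8.78 ± 0.307 in cerebellar and 2.72 ± 0.352 in prefrontal NeuN-, 2 were lower and 1 was not called. Igf2 and Lum each passed the filter only through 1 of these groups, so their directions were fixed. The sum includes Pdgfra, also a marker of oligodendrocyte precursors, at 2.07 ± 0.0167 in cerebellar and 23.2 ± 1.72 in prefrontal NeuN-. Pericyte and smooth muscle genes summed to 66.7 and 72.7 in cerebellar NeuN- and to 110 and 120 in prefrontal NeuN-. Most of both sums came from Vtn, at 52.2 ± 3.43 in cerebellar and 96.8 ± 8.71 in prefrontal NeuN-. Of the 8 kept genes 2 were higher in cerebellum, 5 lower and 1 not called. Pdgfrb was among the higher ones, at 10.1 ± 1.23 in cerebellar and 5.07 ± 0.625 in prefrontal NeuN-. Acta2 and Cspg4 each passed the filter only through 1 of these groups, so their directions were fixed. Ependymal and choroid genes summed to 48.2 and 48.2 in cerebellar NeuN- and to 13.3 and 12.6 in prefrontal NeuN-, and 4 of the 5 kept genes were higher in cerebellum. The choroid gene Ttr was at 5.45 ± 0.586 in cerebellar and 0.672 ± 0.364 in prefrontal NeuN-, while Folr1 and Aqp1 were listed at 0 in the NeuN- libraries of both regions and Foxj1 and Tmem212 in those of prefrontal cortex. Microglial genes summed to 77.9 and 77.6 in cerebellar NeuN- against 774 and 792 in prefrontal NeuN-, and precursor genes of oligodendrocytes to 55.1 and 55.3 against 161 and 170 in prefrontal NeuN-. The 20 astrocyte genes summed to 1119 and 1109 in cerebellar NeuN- and to 1221 and 1231 in prefrontal NeuN-.

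Of 16 other genes reported in Bergmann glia, 14 passed the filter and Slc6a11 and Tnc did not. A2m and Gli1 passed only through cerebellar NeuN- and so had to be higher there. All 14 were higher in NeuN- than in NeuN+ nuclei of cerebellum, where 39.2% of all features were called higher. For A2m and Gli1 this direction was fixed by the filter and is no test. In NeuN- nuclei 10 of the 14 were higher in cerebellum than in prefrontal cortex, with the direction of A2m and Gli1 again fixed by the filter. Aldoc was lower and Slc1a3, Ptch1 and Wif1 were not called, beside 40.5% of all features called higher and 39.0% lower. A2m, a protease inhibitor gene, was at 27.4 ± 1.25 in cerebellar NeuN- and 0.841 ± 0.0391 in prefrontal NeuN-. The AMPA receptor subunit genes Gria1 and Gria4, whose products form the calcium-permeable receptors of Bergmann glia, were both higher in cerebellum. Gria1 was at 72.4 ± 0.533 in cerebellar and 9.10 ± 0.347 in prefrontal NeuN-, and Gria4 at 58.6 ± 0.237 in cerebellar and 13.5 ± 1.29 in prefrontal NeuN-. Neurons express both genes too, and in prefrontal cortex both were lower in NeuN- than in NeuN+. On the log2(scaled FPKM + 1) scale Itih3 and Ptprz1 had the largest gate changes among these genes in cerebellum, with Itih3 at 183 ± 3.28 in NeuN- and 5.90 ± 0.214 in NeuN+ and Ptprz1 at 45.9 ± 0.515 in NeuN- and 1.49 ± 0.0384 in NeuN+. By the ratio of means A2m, whose direction was fixed by the filter, came first, with a NeuN+ mean of 3.14% of the NeuN- mean.

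The 20 astrocyte genes were all higher in NeuN- in both regions, but in NeuN- nuclei they split between the regions: 10 were higher in cerebellum, 8 were lower and 2 were not called, with a median log2 change of 0.28 against 0.02 over all features, of which 40.5% were higher and 39.0% lower. The zinc transporter gene Slc39a12, the gap junction gene Gja1 and the glutamate transporter gene Slc1a2 had the largest changes, and all 3 were lower in cerebellum. Slc39a12 was at 3.60 ± 0.0651 in cerebellar NeuN- and 22.8 ± 0.431 in prefrontal NeuN-, Gja1 at 35.3 ± 0.909 in cerebellar and 131.7 ± 9.56 in prefrontal NeuN-, and Slc1a2 at 23.3 ± 0.383 in cerebellar and 79.3 ± 0.162 in prefrontal NeuN-. Gdf10 and Vim lay at log2 changes of 3.38 and 3.56, beyond the highest astrocyte gene, S100b, at 1.71. Hopx, at 1.54, and Lcat, at 0.90, lay inside the astrocyte range. So did Fabp7, at -1.08, between Gjb6 at -1.06 and Cldn10 at -1.65.

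**Figure D4:**
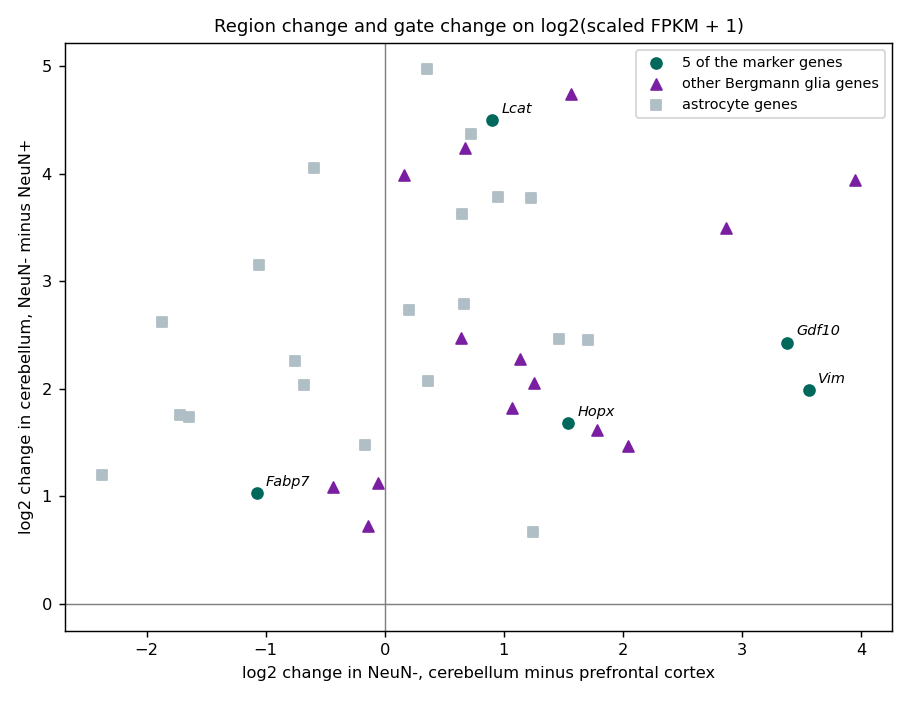
Log2 change between the regions in NeuN- nuclei (cerebellum minus prefrontal cortex, horizontal axis) and log2 change between the gates in cerebellum (NeuN- minus NeuN+, vertical axis), both on log2(scaled FPKM + 1), for 5 of the marker genes (Dao is not drawn), 14 other genes reported in Bergmann glia and 20 astrocyte genes. All of these genes lie above 0 on the vertical axis, and Gdf10 and Vim lie to the right with A2m and Gria1, the 2 triangles beyond 2.5. A2m and Gli1, which are drawn, passed the filter only through cerebellar NeuN-, so their directions were fixed.

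Genes of the pathways around the 6 genes were called in both directions between the NeuN- groups, in a comparison where 40.5% of all features were higher and 39.0% lower. Beside Dao, 12 genes of D-amino acid turnover and serine supply were kept. Of these, 4 were higher and 8 lower in cerebellar than in prefrontal NeuN- nuclei. Glyctk passed the filter only through 1 of these groups, so its direction was fixed. Srr, which encodes the serine racemase that makes D-serine, was at 5.48 ± 0.413 in cerebellar NeuN- and 21.3 ± 1.44 in prefrontal NeuN-, although it overlaps Tsr1. The neutral amino acid transporter gene Slc1a4 was at 5.53 ± 0.586 in cerebellar and 29.6 ± 0.461 in prefrontal NeuN-, and Psat1, of serine synthesis, at 22.9 ± 0.469 in cerebellar and 65.7 ± 2.74 in prefrontal NeuN-. Ddo, which encodes the related D-aspartate oxidase, was higher in cerebellar NeuN-, at 14.2 ± 0.795 against 9.45 scaled FPKM in prefrontal NeuN-. Slc7a10, the transporter gene of small neutral amino acids including D-serine, was higher as well, at 45.2 ± 1.46 in cerebellar NeuN- against 18.7 scaled FPKM in prefrontal NeuN-, but it overlaps Lrp3.

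Among 12 kept genes of lipoprotein cholesterol handling, the setting of Lcat, 4 (33.3%) were higher, 7 (58.3%) lower and 1 not called in cerebellar against prefrontal NeuN-. The lipoprotein genes Clu and Apoe were both lower while Lcat was higher: Clu was at 37.7 ± 0.664 in cerebellar and 626 ± 25.0 in prefrontal NeuN-, and Apoe at 1595 ± 9.44 in cerebellar and 4276 ± 124.7 in prefrontal NeuN-. Pltp, a phospholipid transfer protein gene that overlaps Ctsa, was higher, at 8.57 ± 0.354 in cerebellar and 2.77 ± 0.340 in prefrontal NeuN-.

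Of 26 kept genes of TGF-beta, activin and BMP signalling, 8 were higher, 13 lower and 5 not called in cerebellar against prefrontal NeuN-. Nog passed the filter only through 1 of these groups, so its direction was fixed. The activin gene Inhba, the type I receptor gene Tgfbr1 and the BMP target gene Id2 changed most among those above the naming minimum, and all were lower in cerebellum while Gdf10 was higher. Inhba was at 2.04 ± 0.233 in cerebellar and 9.31 ± 0.158 in prefrontal NeuN-, Tgfbr1 at 3.58 ± 0.180 in cerebellar and 12.6 ± 0.991 in prefrontal NeuN-, and Id2 at 99.9 ± 3.90 in cerebellar and 290.5 ± 5.68 in prefrontal NeuN-. In the cerebellar gates Id3, another BMP target, was at 50.2 ± 0.360 in NeuN- and 2.09 ± 1.22 in NeuN+, and Chrd, a BMP antagonist gene that overlaps Thpo, at 4.88 ± 0.273 in NeuN- and 35.4 ± 3.71 in NeuN+.

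Genes of the families of the structural and lipid-binding members were also called in both directions, at shares to be read against the same 40.5% and 39.0% of all features. Of 11 kept intermediate filament genes beside Vim, 4 were higher, 5 lower and 2 not called in cerebellar against prefrontal NeuN-. Prph passed the filter only through 1 of these groups, so its direction was fixed. Gfap, the astrocyte filament gene often set beside Vim, was at 3.60 scaled FPKM in cerebellar and 4.17 in prefrontal NeuN- (limma adjusted p = 0.251). Nefl, a neurofilament gene, was at 27.5 ± 1.31 in cerebellar and 144 ± 14.6 in prefrontal NeuN-. Of 6 kept genes of fatty acid binding and its receptors beside Fabp7, 3 were higher, 2 lower and 1 not called. Fabp3 (92.4 ± 0.585 in cerebellar and 267.8 ± 8.00 in prefrontal NeuN-) and Fabp5 (67.6 ± 3.95 in cerebellar NeuN- and 110.8 scaled FPKM in prefrontal NeuN-) were lower like Fabp7. The lipid-sensing receptor gene Pparg was higher, at 5.60 ± 0.282 in cerebellar and 1.17 ± 0.477 in prefrontal NeuN-. Of 8 kept genes of serum response factor and its partners beside Hopx, 4 were higher, 3 lower and 1, Srf itself, not called (1.54 scaled FPKM in cerebellar and 1.01 in prefrontal NeuN-).

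Notch signalling, by which Purkinje cells act on Bergmann glia, had 14 kept genes. In cerebellar against prefrontal NeuN- 6 were higher, 2 lower and 6 not called. Jag1 passed the filter only through 1 of these groups, so its direction was fixed. Of all features 40.5% were higher, close to the 42.9% of these genes, and 39.0% were lower. Rbpj, the nuclear effector, was higher (11.8 ± 0.514 in cerebellar and 6.07 ± 0.209 in prefrontal NeuN-), the target gene Hes1 was higher (6.71 ± 0.134 in cerebellar and 3.88 ± 0.0327 in prefrontal NeuN-) and the target gene Hey1 was lower (5.15 ± 0.344 in cerebellar and 20.7 ± 1.56 in prefrontal NeuN-). Of 10 kept radial glia and progenitor genes, 6 were higher, 3 lower and 1 not called, beside the same shares of all features. The direction of Top2a was fixed by the filter in the same way. Prom1 was at 6.48 ± 0.432 in cerebellar and 2.57 ± 0.0741 in prefrontal NeuN-, and Sox2, which overlaps Sox2ot, at 6.97 ± 1.19 in cerebellar and 3.32 ± 0.210 in prefrontal NeuN-.

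The features whose profile over the 8 libraries lay nearest to each gene were found by the root mean square difference of log2(scaled FPKM + 1), centred per feature. These likenesses describe 8 libraries of 1 animal. Among the nearest to Dao were Msx2 (0.25) and Aldh1a1 (0.26). Nearest to Vim were Tfap2b (0.15), a transcription factor gene of cerebellar inhibitory interneurons, Cpsf4l (0.24) and Trim67 (0.24). Lcat lay closest to the astrocyte gene Fgfr3 (0.13), to Etnppl (0.18) and to Ptprz1 (0.22), which is among the other genes reported in Bergmann glia. Gdf10 had less close neighbours, Cdk5rap2 (0.27), Fxyd1 (0.37) and Slco4a1 (0.51). Hopx was nearest to the metallothionein gene Mt2 (0.22), Daam2 (0.26) and Tsc22d4 (0.28), and Fabp7 to Pnp2 (0.11), Msn (0.13) and Lpar1 (0.17). Among the 6 genes themselves the nearest pair was Vim and Dao (0.46), then Gdf10 and Vim (0.61), Gdf10 and Hopx (0.66) and Gdf10 and Dao (0.82), and the farthest was Vim and Lcat (1.92). Vim and Fabp7 had a Pearson correlation of 0.11 over the 8 libraries, Gdf10 and Vim of 0.95, Gdf10 and Hopx of 0.95 and Gdf10 and Dao of 0.91; the libraries share 1 animal, 4 groups and their scaling, so these are descriptions only.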

How the data were processed

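RNA of NeuN- and NeuN+ nuclei of cerebellum and prefrontal cortex of 1 mouse was analysed in 8 libraries, grouped by the sample titles. The deposited values are gene-level FPKM with confidence limits, per the file headers. Tools named in the submitters' processing notes, without roles, are Trim Galore 0.3.7, Bowtie 1.1.1, TopHat2 2.1.1, Bismark and Cufflinks, and the mouse build is mm9; the annotation, strand use and Cufflinks version were not given in the sources used here. Per the labels' protocols, nuclei were isolated from frozen cerebellum, with the handling of prefrontal cortex not stated. FPKM are already divided by library size and length. Fragment numbers implied by the confidence limits came within 0.05 of whole in only 41.8% to 47.8% of low values, so no count test was run. The status was not OK for 14 values, none of the 6 genes, and an exact 0 may be a failed estimate.

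Median-of-ratios factors, from the 9109 features that reached 1 FPKM in every library, scaled the FPKM. Features that reached 1 FPKM in 2 or more libraries (14376) were fitted on log2(scaled FPKM + 1) by limma 3.58.1 (R 4.3.3) as 4 group means, using the variance trend, which leaves 4 residual degrees of freedom. Tests were two-sided with Benjamini-Hochberg adjustment over all kept features of a comparison and a threshold of 0.05. The procedure was tested on simulated data. Within groups, Spearman correlations over features were 0.973 to 0.981 with 0 identical values above 0, so both libraries were kept. The pseudocount understates changes of low genes. Dao, which passed the filter through 1 group alone, was given no test in comparisons that hold that group. Genes of the lists that passed in this way were left in the counts, although their directions were fixed.

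The members and the gene lists were chosen with earlier results of these data known. Besides the 6 genes, each list gave up to 3 genes with the largest change among those called between the NeuN- groups and up to 2 in the cerebellar gates, if the higher group reached 5 scaled FPKM; the nearest 3 profiles came from features with status OK whose highest group reached 5 scaled FPKM, without predicted genes and small RNAs. Not every gene that the rule names is reported here. Other genes in the text (Gfap, Srf, Ddo, Fabp5, Gli1 and those at the edges of a range) and Slc7a10 between the regions were named after their values were seen. Gene coordinates are those of the tables, with 1 added to the start. Promoters are from RefSeq (GRCm38.p6; 27025 genes, all 6 matched). The chromatin samples, 114 from mouse and 54 human, were not analysed here.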

Additional observations from a re-analysis of the deposited data

Results flagged for a closer look

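A difference between the regions in the NeuN- minus NeuN+ change (cerebellum minus prefrontal cortex, log2(scaled FPKM + 1), limma) passed the test for each of the 5 genes tested; Dao was not tested. The difference was 0.73 for Gdf10 (adjusted p = 0.00133), whose ratios of means were alike in the regions. It was 1.85 for Vim (adjusted p = 4.1e-05), which was called between the gates in cerebellum and not in prefrontal cortex. It was 0.39 for Lcat (adjusted p = 0.0429), the call nearest to the threshold. It was -0.81 for Hopx (adjusted p = 4.3e-04) and -1.75 for Fabp7 (adjusted p = 4.4e-05), the genes with the smaller change in cerebellum.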

How the results depend on the processing

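Over 19 alternatives per gate or region comparison and 18 for the interaction, the 94 recomputed counts of called features stayed within 1.5 times of the main ones, and 490 of 502 recomputed tests of the 6 genes kept their direction and their side of the threshold. None reversed. The exceptions were the prefrontal gate change of Vim, called for unscaled FPKM (0.28), the interaction of Gdf10, lost with a pseudocount of 0.1 (0.10), and the interaction of Lcat, lost for unscaled FPKM (0.17), with a pseudocount of 0.1 (0.15), without the filter on low values (0.39, limma adjusted p = 0.0580) and without each library but prefrontal NeuN+ replicate 2 (0.23 to 0.54 over all 8); the cause was not tested. The pseudocount set the size of low changes: for Dao between the NeuN- groups 1.47 to 6.30 and for Gdf10 in the prefrontal gates 0.78 to 2.42. With replicate number as a block, the calls numbered 10184 in the cerebellar and 10343 in the prefrontal gates, 11376 and 11021 between the regions in NeuN- and NeuN+, and 9948 for the interaction, against 10300, 10431, 11421, 11099 and 10079 without it, and no call of the 6 genes changed; the numbers did not pair the libraries (correlations of deviations -0.0451 to 0.0342). Leaving out a library gave 8962 to 10156, 9119 to 10202, 10304 to 11204, 10073 to 10910 and 9041 to 9271 calls in the same order, and the lone library of a group was then assumed to vary like the others. The share of calls that were higher moved with scaling: for the prefrontal gates it was 51.8%, and 64.0% for unscaled FPKM, 40.1% rescaled to a common sum and 44.6% with quantile normalization; between the NeuN- groups 51.0%, and 62.1% rescaled to a common sum and 42.6% unscaled; for the interaction 52.8%, and 42.4% unscaled and 62.3% rescaled to a common sum; in the cerebellar gates 54.8%, and 44.2% with quantile normalization. Dao did not pass the filter when either cerebellar NeuN- library was left out, nor in fits of 4 libraries without that group, and the fit of only the 4 libraries of a comparison has no interaction. With 1 mouse and unknown depth, the spread between animals and the absence of Dao from prefrontal cortex cannot be judged.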
